A study of Rattus norvegicus with 9 samples.

Results

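The 10 Notch signaling genes described here were Lfng, the receptors Notch1, Notch2 and Notch3, the ligands Dll1 and Jag1, and the target genes Hes1, Hes5, Hey1 and Hey2. They were found by gene name, and each name matched 1 of the 34890 loci in the expression table. RNA was sequenced from the L3-L6 spinal cord of wild-type Sprague Dawley rats, all of them male according to the methods of the study. JA rats were sham-operated and received saline by mouth. SNI rats had a spared nerve injury, in which all but the sural branch of the sciatic nerve is tied and cut, and they received saline too. PLM rats had the same injury and were given, also by mouth, paeoniflorin at 20.65 mg/ml with liquiritin, for which the labels of replicates 1, 2 and 3 give 3.98, 3.99 and 3.100 mg/ml. The methods of the study give a single liquiritin dose for the group, 3.98 mg/ml, so these labels do not show that the replicates were dosed differently. Paeoniflorin and liquiritin are main constituents of peony and licorice root. Each group held 3 samples, and ages were not given in the sources used here. Lfng was chosen by its measured change in PLM against SNI, and the other members joined it as genes of its pathway with those results known. Values of the members in PLM against SNI are therefore a description without a test. SNI against JA and PLM against JA were tested, and each shares samples with that contrast.

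Notch receptors bind a ligand on a neighboring cell and are then cut by an ADAM protease and by gamma-secretase, and the freed intracellular part joins the DNA-binding protein RBPJ and Mastermind proteins to switch on Hes and Hey genes. Fringe enzymes, of which Lfng (lunatic fringe) is one, add N-acetylglucosamine to fucose on the receptor and so change how well it answers Delta and Jagged ligands. In the spinal cord the pathway is known for holding neural progenitors back from becoming neurons and for guiding astrocyte formation, and in vessels for the identity of mural cells, the pericytes and smooth muscle of the vessel wall.

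Values were in TPM, a transcript abundance divided by length and brought to the same sum in all samples. Depth is therefore unknown, and counting error could not be computed. The labels call the samples of a group biological replicates without saying how many rats each held, and p-values measure only the spread between these samples. Of the Hox genes of lumbar level, Hoxc10 had means of 36.9, 44.05 and 38.05 TPM and Hoxd10 of 22.1, 23.4 and 23.7 TPM in JA, SNI and PLM, while Hoxa10 averaged under 1 TPM in each group. Over the whole list of 9 genes of cord level and cord neurons, all 8 tested were above 0 in SNI against JA (median 0.39, and 0.26 after centring), 0 of 8 passed an adjusted p of 0.05 from limma, and 3 of 8 had an unadjusted p under 0.05, against 7.1% of loci. These were Slc5a7, the choline transporter of cholinergic neurons, at a log2 fold change of 1.28, which was called, and Hoxc9 and Slc6a5 at 0.45 and 0.48. JA replicate 3 stood apart in its makeup. It had the lowest astrocyte marker level of the saline groups, 5.96 on the log2(TPM + 1) scale against 7.12 and 6.69 in the other JA samples, and the highest summed level of 6 Schwann cell markers, 7961.6 TPM against 622.6 to 4836.7 TPM in the other 8. The 12 neuron markers summed to 2616.9 to 4951.2 TPM in JA, 4901 to 6115.9 TPM in SNI and 4226 to 4875.6 TPM in PLM, with JA replicates 2 and 3 the lowest. All 12 had a log2 fold change above 0 in SNI against JA (median 0.31, 0.19 after centring). Of the 12, 0 passed an adjusted p of 0.05 from limma and 2 had an unadjusted p under 0.05, against 7.1% of all loci. Nefm was called, at 1.07, as were 0.688% of loci, but not after centring, at 0.95. The part of neuron content in the members' values was not tested. The 13 mitochondrial protein genes took 25.3% to 32.8% of TPM in JA, 23.7% to 26.1% in SNI and 31.3% to 32.8% in PLM. The median log2 fold change of all loci tested was 0.12 in SNI against JA, -0.10 in PLM against JA and -0.21 in PLM against SNI. The main results are therefore also given on values centred on the median of each sample.

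The stretch before the gene start was read for the members because several of them are textbook RBPJ targets. RefSeq promoters of the rat build GRCr8 were matched by symbol for 9 of the 10 members, all but Hey1. In the 250 bases before the start, the motif GTGGGAA, the letters RBPJ prefers, was found on either strand in 5 of the 9, which were Lfng, Dll1, Hes1, Hes5 and Hey2. Of all 33469 promoters in the table, 5.27% held it in the same window. The core TGGGAA, which lies inside it, was in the same 5 members and in 22.1% of all promoters. Those 5 are shown here, 5′ to 3′ in the direction of the gene, with GTGGGAA or TGGGAA in capitals, or TTCCCAC and TTCCCA where the match was on the opposite strand. They lie at chr12:19152919-19153168 on the minus strand for Lfng, chr1:64993275-64993524 (minus) for Dll1, chr11:84213046-84213295 (minus) for Hes1, chr5:170804327-170804576 (plus) for Hes5 and chr1:28640850-28641099 (plus) for Hey2.
Lfng: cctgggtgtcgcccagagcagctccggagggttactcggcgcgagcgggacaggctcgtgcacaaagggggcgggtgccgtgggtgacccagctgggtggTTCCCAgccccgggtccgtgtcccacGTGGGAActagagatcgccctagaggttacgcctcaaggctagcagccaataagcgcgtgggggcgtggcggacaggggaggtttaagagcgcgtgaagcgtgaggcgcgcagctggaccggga
Dll1: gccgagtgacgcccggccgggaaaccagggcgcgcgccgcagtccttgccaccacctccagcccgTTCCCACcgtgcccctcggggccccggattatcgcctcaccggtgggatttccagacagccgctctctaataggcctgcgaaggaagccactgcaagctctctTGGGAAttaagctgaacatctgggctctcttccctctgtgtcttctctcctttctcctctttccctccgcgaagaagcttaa
Hes1: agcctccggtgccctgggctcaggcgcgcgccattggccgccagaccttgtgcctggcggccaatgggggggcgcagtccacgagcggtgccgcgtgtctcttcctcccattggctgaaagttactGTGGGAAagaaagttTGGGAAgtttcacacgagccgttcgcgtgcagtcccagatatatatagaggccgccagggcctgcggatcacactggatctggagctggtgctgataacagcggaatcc
Hes5: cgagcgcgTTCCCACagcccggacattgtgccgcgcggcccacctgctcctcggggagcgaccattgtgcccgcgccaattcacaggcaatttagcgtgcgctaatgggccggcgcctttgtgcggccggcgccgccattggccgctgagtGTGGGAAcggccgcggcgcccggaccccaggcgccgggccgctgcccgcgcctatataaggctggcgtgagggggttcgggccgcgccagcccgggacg
Hey2: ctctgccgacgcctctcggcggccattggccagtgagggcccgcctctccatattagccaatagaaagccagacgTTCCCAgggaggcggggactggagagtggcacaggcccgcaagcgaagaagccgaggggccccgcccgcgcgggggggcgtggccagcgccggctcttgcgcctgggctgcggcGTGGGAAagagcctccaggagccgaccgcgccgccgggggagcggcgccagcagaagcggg

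In Lfng the motif began 124 bases before the start, where it overlapped CACGTG, and a core on the opposite strand began 150 bases before the start. In Hes1 the motif also began 124 bases before the start, and a core on the same strand followed it at 109. Hes5 held the motif on opposite strands at 242 and 99 bases, and Hey2 at 61. The letters CACGCG, which Hes repressors bind, were found on either strand in Lfng, Notch2, Jag1 and Hes1, 4 of 9 members against 7.14% of all promoters. The N-box CACNAG, another Hes site, was in 4 of 9 members against 37.2% of all promoters. The windows of the 9 members were 61.6% to 73.2% G and C, with 18 to 36 CG pairs each. The medians over all promoters were 51.2% and 5, and CACGCG itself contains CG pairs. How much of these shares base makeup gives was not tested. These members were gathered by function, and a match is a run of letters, not a measured site.

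**Figure D1:**
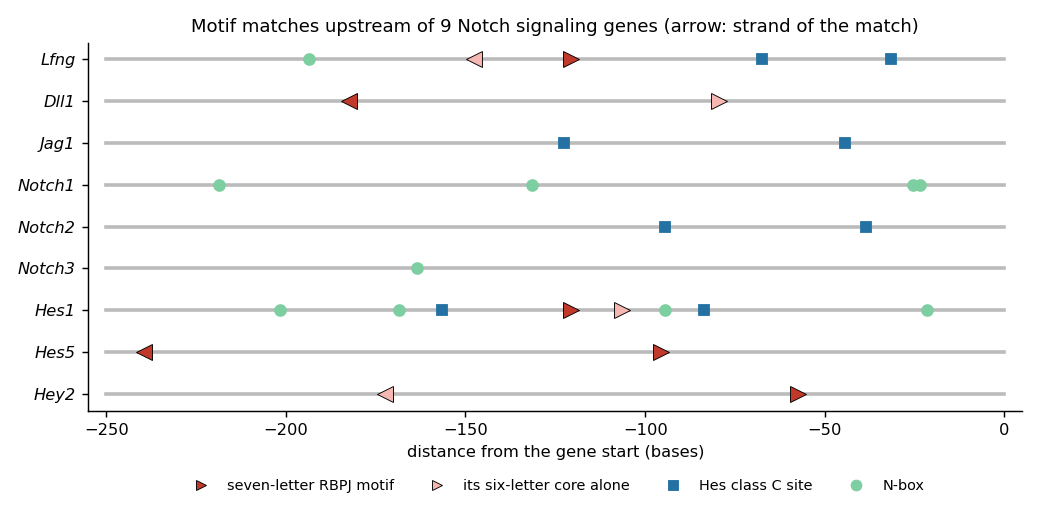
Motif matches in the 250 bases before the start of the 9 matched members, with distance from the start in bases on the x axis. Dark red arrows mark GTGGGAA, pale arrows its core TGGGAA alone, squares CACGCG and circles CACNAG; Lfng, Dll1, Hes1, Hes5 and Hey2 carry dark arrows.

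Lfng was the most abundant member by median over the 9 samples, at 16.8 TPM. It was at 23.54, 16.83 and 9.36 TPM in JA replicates 1, 2 and 3. It was at 26.02, 25.49 and 27.00 TPM in SNI, and at 9.96, 8.61 and 8.87 TPM in PLM. The SNI samples were close to each other and above every JA sample, the PLM samples were low, and JA replicate 3 lay among the PLM samples. The group means were 26.2 ± 0.766 TPM in SNI, 16.6 ± 7.09 TPM in JA and 9.15 ± 0.716 TPM in PLM (SD, n = 3). In the contrast that chose it, PLM against SNI, Lfng had a log2 fold change of -1.42 (standard error 0.08), and -1.18 on median-centred values.

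In SNI against JA the log2 fold change of Lfng was 0.71 (standard error 0.29), which did not pass after adjustment over all loci (adjusted p = 0.614, limma with Benjamini-Hochberg adjustment). In PLM against JA it was -0.71 (standard error 0.29) with an adjusted p of 0.419 from limma. With centring these log2 fold changes were 0.59 and -0.58 (adjusted p = 0.889 and 0.524, limma). Both depended on which JA sample was left out. Without JA replicate 3 the log2 fold change was 0.38 in SNI against JA (adjusted p = 0.836, limma) and -1.05 in PLM against JA (adjusted p = 0.0781, limma). Without JA replicate 1, the JA sample highest in Lfng, it was 1.0 (adjusted p = 0.236, limma) and -0.42 (adjusted p = 0.562, limma). With an exact permutation test the smallest p that 3 against 3 samples allow is 0.1.

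The other Fringe enzymes, Mfng (manic fringe) and Rfng (radical fringe), modify the same fucose. Mfng was at 7.96, 9.16 and 7.77 TPM in JA, at 6.94, 6.76 and 5.97 TPM in SNI, and at 6.82, 6.90 and 7.60 TPM in PLM. Rfng was higher than Lfng in every sample, with means of 39.7 ± 5.03 TPM in JA, 39.6 ± 6.81 TPM in SNI, against 42.1 ± 1.57 TPM in PLM (SD, n = 3). Both had a log2 fold change of 0.10 in PLM against SNI, with adjusted p-values from limma of 0.422 and 0.589, and of 0.35 after centring, with adjusted p-values of 0.102 and 0.255 from limma. As deposited, the SNI and PLM samples overlapped for each. Lfng made up 34.8%, 39.7% and 34.6% of the TPM of the 3 Fringe genes in the SNI samples, against 17.4%, 14.6% and 15.1% in PLM and 30.6%, 27.3% and 17.0% in JA. Each PLM share was below each SNI share, and JA replicate 3 was again next to PLM. The shares are built on the Lfng values that chose it, so this separation is a description and no further result.

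Of the ligands, Dll1, a Delta ligand, was low, with 1.55, 1.43 and 1.36 TPM in JA, 1.79, 1.72 and 1.75 TPM in SNI and 1.28, 1.14 and 1.02 TPM in PLM. As deposited the 3 groups did not overlap, in the order PLM, JA, SNI from low to high. The share of loci separated in this way was not computed. On median-centred values the order broke, with PLM replicate 1 the highest of all 9 samples. On the log2(TPM + 1) scale the differences of Dll1 were small, 0.17 in SNI against JA (adjusted p = 0.662, limma) and -0.19 in PLM against JA (adjusted p = 0.656, limma). On median-centred values they were 0.05 and -0.07, and the log2 fold change in PLM against SNI was -0.11 in place of -0.36. Jag1, a Jagged ligand, was at 1.87, 2.84 and 1.68 TPM in JA, 1.63, 2.05 and 1.48 TPM in SNI, and 1.66, 1.80 and 2.01 TPM in PLM. As deposited, the groups of Jag1 overlapped in every comparison. It was the member with a log2 fold change above 0 in PLM against SNI, 0.06 (standard error 0.14), and 0.30 on median-centred values.

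The receptor Notch1 was at 4.73, 6.08 and 3.23 TPM in JA, 5.16, 5.44 and 4.33 TPM in SNI and 3.66, 4.05 and 4.29 TPM in PLM. Its PLM samples were below its SNI samples by a small margin, and JA spanned both. The log2 fold change of Notch1 in PLM against SNI was -0.25, close to the median of all loci, and -0.01 after centring. Notch2 had means of 4.29 ± 0.401 TPM in JA, 4.59 ± 0.490 TPM in SNI, against 3.17 ± 0.607 TPM in PLM (SD, n = 3). In PLM against JA the log2 fold change of Notch2 was -0.35 at an adjusted p of 0.418 from limma, and -0.23 after centring (adjusted p = 0.559, limma). Notch3, the receptor of mural cells, was at 8.21, 11.47 and 6.05 TPM in JA, 7.26, 8.06 and 10.27 TPM in SNI and 4.93, 7.86 and 7.04 TPM in PLM. All pairs of groups overlapped for Notch3, and its log2 fold changes were 0.02 in SNI against JA (adjusted p = 0.974, limma) and -0.31 in PLM against JA (adjusted p = 0.647, limma), the latter between -0.51 without JA replicate 3 and -0.10 without JA replicate 2. With centring the SNI against JA log2 fold changes of Notch1, Notch2 and Notch3 were -0.02, -0.04 and -0.10, so their sign turned. Those of PLM against JA were -0.03, -0.23 and -0.19.

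The 8 mural cell markers summed to 345.6 to 611.2 TPM in JA, 284.6 to 415.3 TPM in SNI and 298.9 to 446.4 TPM in PLM, and none of them was at 0 in all samples. JA replicate 2 held both the highest mural sum and the highest Notch3 value. It also held the highest marker sums of endothelium, ependyma, microglia and oligodendrocytes, and the highest Notch1, Jag1 and Hey1 values. In PLM the mural sum was highest in replicate 3 and Notch3 in replicate 2. The part of mural cells in the Notch3 values was not tested. In SNI against JA all 8 mural markers had a log2 fold change below 0 (median -0.17, and -0.29 after centring). There 0 of 8 had an unadjusted p under 0.05 from limma, against 7.1% of loci. In PLM against JA the median was -0.11, and 5 of 8 were below 0. The median log2 fold change of the mural markers was -0.02 in PLM against SNI, with 0 of 8 past an adjusted p of 0.05 from limma and 2 of 8 at an unadjusted p under 0.05, which 37.1% of loci had. After centring that median was 0.22, all 8 markers were above 0, and 0 of 8 passed an adjusted p of 0.05 and 2 of 8 an unadjusted one, against 16.9% of loci.

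Hey1 and Hey2, repressors switched on by Notch, had a common pattern. Hey1 was at 12.85, 14.44 and 9.52 TPM in JA, 12.82, 11.92 and 13.07 TPM in SNI, and 7.19, 8.08 and 9.36 TPM in PLM. Hey2 was at 7.09, 7.0 and 3.65 TPM in JA, 6.76, 6.75 and 6.18 TPM in SNI, and 3.51, 3.43 and 3.62 TPM in PLM. For each gene every PLM sample was below every sample of the other groups, and JA replicate 3 was the lowest of the saline samples. In PLM against JA the log2 fold changes were -0.52 for Hey1 (adjusted p = 0.370, limma) and -0.57 for Hey2 (adjusted p = 0.412, limma), and -0.39 and -0.44 after centring (adjusted p = 0.494 and 0.508, limma). Without JA replicate 3 they were -0.67 for Hey1 and -0.83 for Hey2 (adjusted p = 0.109 and 0.0628, limma). In SNI against JA they were 0.05 and 0.17 (adjusted p = 0.893 and 0.763, limma), and -0.07 and 0.05 after centring. Between PLM and SNI they were -0.57 (standard error 0.10) and -0.74 (standard error 0.08), and -0.32 and -0.49 after centring.

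Hes1 was at 5.33, 4.73 and 3.58 TPM in JA, 4.43, 7.57 and 7.90 TPM in SNI, and 3.76, 2.71 and 3.83 TPM in PLM. Its SNI samples were split, with replicate 1 at the level of JA and the other SNI samples above every JA sample. The log2 fold change of Hes1 was 0.44 in SNI against JA (adjusted p = 0.614, limma) and -0.32 in PLM against JA (adjusted p = 0.525, limma), and 0.32 and -0.20 after centring. With 1 sample left out, the values as deposited ranged from 0.31 to 0.67, the last without SNI replicate 1, and from -0.45 to -0.20, the last without PLM replicate 2. Between PLM and SNI it was -0.76 (standard error 0.22), and -0.51 after centring. Hes5, the other Hes gene, was low and uneven among sham rats, at 2.91, 1.26 and 2.73 TPM in JA, 1.65, 1.96 and 1.59 TPM in SNI and 1.66, 1.07 and 1.43 TPM in PLM. All pairs of groups overlapped for Hes5. Its log2 fold change was -0.23 in SNI against JA (adjusted p = 0.710, limma), -0.43 in PLM against JA (adjusted p = 0.546, limma) and -0.20 in PLM against SNI, where centring gave 0.05. Centring gave -0.35 and -0.31 in the comparisons with JA. Without JA replicate 2, the low JA sample, the log2 fold changes of Hes5 against JA were -0.48 for SNI and -0.69 for PLM, and without JA replicate 1 they were -0.09 and -0.29.

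**Figure D2:**
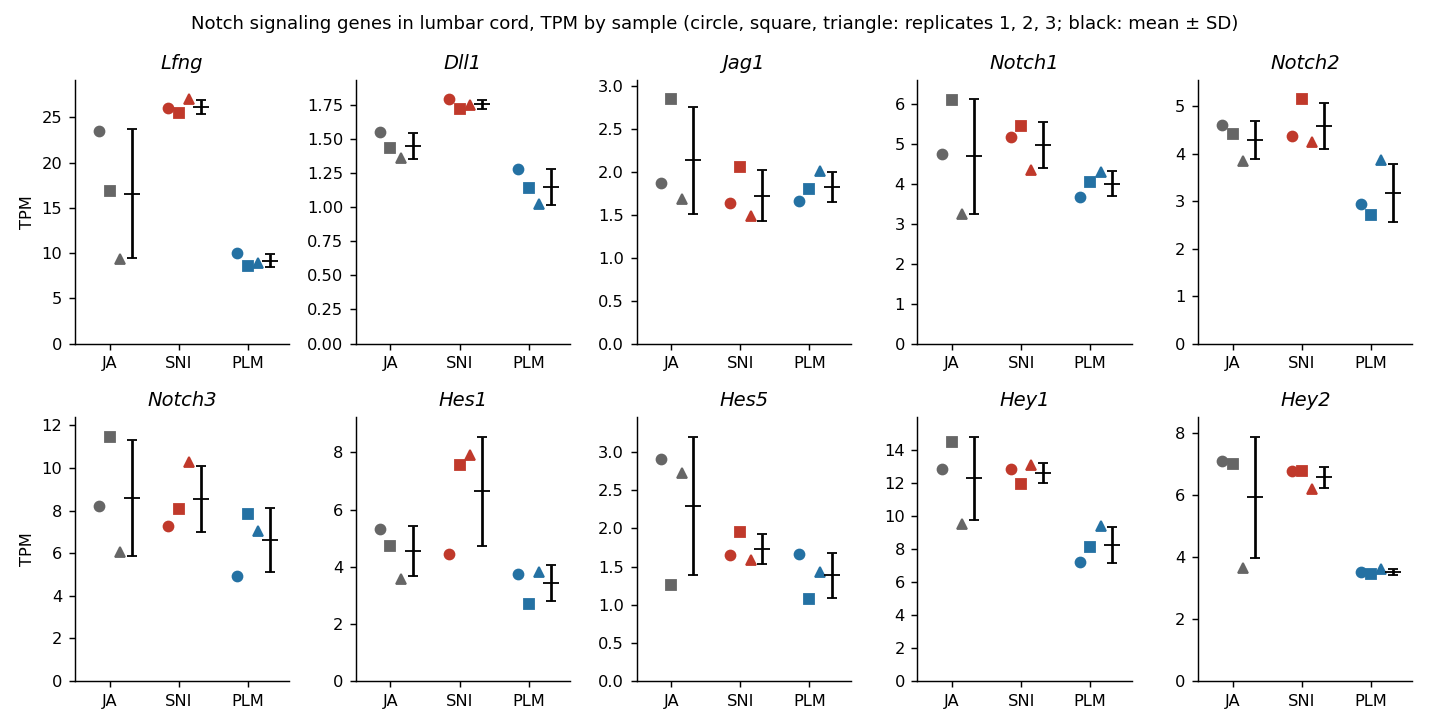
TPM of the 10 members in each sample of JA, SNI and PLM, 1 panel per gene with its own y axis from 0; circles, squares and triangles are replicates 1, 2 and 3, and black bars are the mean ± SD of 3 samples. Lfng lies at 25.49 to 27.00 TPM in SNI and 8.61 to 9.96 TPM in PLM, and Jag1 and Hes5 overlap between all groups.

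Across the members, SNI against JA gave no call. Calls needed an absolute log2 fold change above 1 and an unadjusted p under 0.05, the thresholds in the methods of the study, which 0 of 10 members met against 0.688% of 15557 loci tested. At an adjusted p under 0.05 from limma 0 members and 0% of loci passed, while 1 member, Lfng, and 7.1% of loci had an unadjusted p under 0.05. For 2 members, Lfng and Dll1, all SNI samples lay above all JA samples, as for 12.1% of loci, and the same 2 did so after centring, where 4% of loci did. In PLM against JA 0 of 10 members were called, against 0.938% of 15349 loci, and 0 passed an adjusted p of 0.05 from limma, against 0.0195% of loci. At an unadjusted p under 0.05 there were 4 members, Lfng, Notch2, Hey1 and Hey2, all lower in PLM, against 11.8% of loci. With median-centred values 1 of them, Hey1, had such a p, against 9.98% of loci. For 3 members, Dll1, Hey1 and Hey2, all PLM samples lay below all JA samples, as for 15.7% of loci, and after centring this held for 2 members, Notch2 and Hey1, and for 6.93% of loci.

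In PLM against SNI, where nothing is read from the count, 1 member was called lower, Lfng, beside 1.42% of 15474 loci and, with median-centred values, 0.659%. For 7 members all PLM samples lay below all SNI samples, beside 41.9% of loci, and Notch3, Jag1 and Hes5 overlapped. With centring this held for 3 members, Lfng, Hey1 and Hey2, beside 9.73% of loci, and 1 member, Jag1, lay above without overlap, beside 14.1% of loci. All 10 members passed the limit of a mean of 1 TPM in each comparison. Their median log2 fold change was 0.09 in SNI against JA beside 0.12 for all loci tested, -0.33 in PLM against JA beside -0.10, and -0.39 in PLM against SNI beside -0.21.

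**Figure D3:**
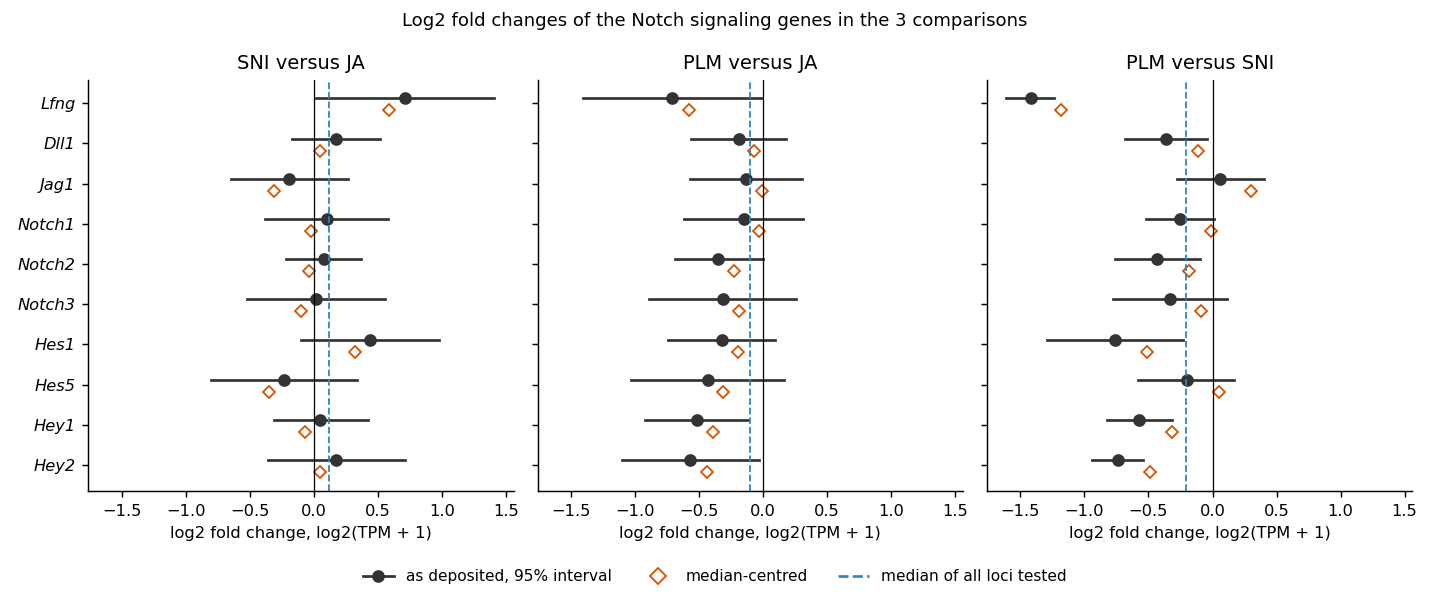
Log2 fold changes of the 10 members on the log2(TPM + 1) scale in the 3 comparisons; filled points with lines are values as deposited with 95% intervals from limma, open diamonds are median-centred values, and the dashed line is the median of all loci tested. In PLM versus SNI, Lfng lies at -1.42 and Jag1 at 0.06, with the dashed line at -0.21. The intervals in that panel are a description and no test, since Lfng was chosen by that contrast.

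Markers of astrocytes, a cell type in which Notch genes are active, moved with several members. All 15 astrocyte markers had a log2 fold change below 0 in PLM against SNI, and 14 of 15 passed an adjusted p of 0.05 from limma, against 13.9% of loci, and 11 of 15 on median-centred values, against 0.814%. All 15 were also below 0 in PLM against JA, with a median of -0.94, where 0 of 15 passed an adjusted p of 0.05 from limma and 12 of 15 had an unadjusted p under 0.05, against 11.8% of loci, and 8 of 15 after centring, against 9.98%. In SNI against JA all 15 were above 0, with a median of 0.42, and 12 of 15 after centring. As deposited 0 of 15 passed an adjusted p of 0.05 from limma and 0 of 15 had an unadjusted p under 0.05, against 7.1% of loci. Gfap, the astrocyte intermediate filament, averaged 588 ± 28.3 TPM in the SNI samples against 241 ± 22.1 TPM in the PLM samples (SD, n = 3). Its log2 fold change in PLM against SNI was -1.28 at an adjusted p of 0.00396 from limma. The JA samples averaged 607 ± 202 TPM of Gfap, so its SNI mean was not above its JA mean. Against JA, the Gfap log2 fold change was 0.02 for SNI and -1.27 for PLM, with adjusted p-values of 0.983 and 0.276 from limma. Centring gave -0.11 and -1.14. In PLM against SNI, the water channel gene Aqp4 and the glutamate transporter gene Slc1a3 had log2 fold changes of -1.19 and -1.13 (adjusted p = 0.0138 and 0.00526, limma). There Aqp4 did not pass after centring (adjusted p = 0.0749, limma). The summed level of the 15 markers was 4493 to 7485 TPM in JA, 6330 to 7626 TPM in SNI and 3292 to 3965 TPM in PLM, and none was at 0 in all samples. In bulk cord, fewer astrocytes and less RNA of these genes per astrocyte cannot be told apart.

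Set against the mean of the astrocyte markers in its own sample, Lfng varied little. Lfng minus the astrocyte mean, on the log2(TPM + 1) scale, was -2.51, -2.54 and -2.59 in JA, -2.34, -2.37 and -2.04 in SNI, and -2.39, -2.44 and -2.27 in PLM. Over the 9 samples this difference spanned 0.55, against 1.54 for Lfng itself and 1.55 for the astrocyte mean, and JA replicate 3 was close to the other JA samples. The SNI and PLM samples overlapped, with a difference of -0.12 in PLM against SNI. The JA samples lay below both, with differences of 0.29 in SNI against JA and 0.18 in PLM against JA. On this scale 5 of 10 members lay above JA without overlap in PLM, and 1, Lfng, in SNI. The share of all loci was not computed for either comparison, so nothing particular to Lfng is read from them. With the median of the astrocyte list in place of its mean, the PLM against SNI difference was 0.08, and those against JA were 0.05 for SNI and 0.13 for PLM, so the order of SNI and PLM turned.

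The other members did not follow the astrocyte markers as far. Relative to the astrocyte mean, the PLM against SNI difference was 0.55 for Hes1, 0.57 for Hey2, 0.74 for Hey1, 1.05 for Notch1 and 1.37 for Jag1, and all PLM samples lay above all SNI samples for 8 of 10 members, the exceptions being Lfng and Hes1, beside 92.8% of all loci tested, so this count says nothing particular about the members. For Hes1 the difference was 0.28 without SNI replicate 1, the SNI sample lowest in Hes1, and up to 0.76 with another sample left out. For Lfng it stayed between -0.18 and -0.01 with any 1 sample left out. The astrocyte mean itself was 7.01 ± 0.14 in SNI and 5.71 ± 0.14 in PLM on the log2(TPM + 1) scale (SD, n = 3). The part of astrocyte content in any of these values was not tested.

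**Figure D4:**
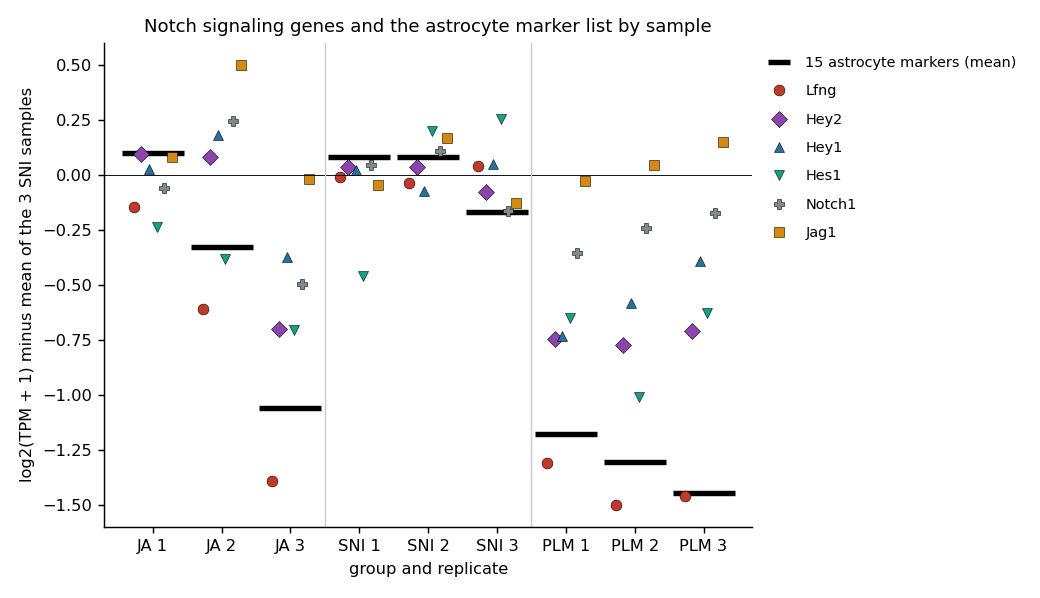
Log2(TPM + 1) of 6 members and of the mean of 15 astrocyte markers in each sample, minus the mean of the 3 SNI samples; black bars are the astrocyte mean and symbols the members. Lfng lies near the bar in each sample, low in JA 3 and PLM, while Jag1 stays near or above 0 in PLM.

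The genes whose pattern was nearest to that of Lfng were sought among 12473 loci with a symbol, by the root mean square difference of median-centred log2 profiles over the 9 samples. The 5 nearest were Ndrg2 at 0.111, Atp1b2 at 0.116, Pla2g7 at 0.125, Fam181b at 0.126 and Gja1 at 0.129. Gja1, the gap junction protein connexin 43, is on the astrocyte marker list. Ndrg2 was at 959.38 to 1067.41 TPM in SNI, 376.16 to 458.43 TPM in PLM and 420.3 to 1034.99 TPM in JA. Among the members Hey2 was nearest to Lfng, with a difference of 0.325 that ranked 184th, followed by Hes1 at 0.385 and Hey1 at 0.437. Jag1 was farthest, at 0.683.

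The rest of the pathway was followed with 47 further genes, of which 46 were in the table and 43 were tested in each comparison. Dll3, Hes2 and Hes3 had a mean under 1 TPM. In SNI against JA 0 of 43 were called or passed an adjusted p of 0.05 from limma, and Fbxw7, Mfng, Maml2, Poglut1 and Dtx2 were among those with the smallest p-values, all at an adjusted p of 0.614, while 3 of 43 had an unadjusted p under 0.05, as did 7.1% of all loci. The log2 fold change was 0.33 for Fbxw7, a ubiquitin ligase subunit that marks the Notch intracellular part for destruction, and -0.30 for Mfng, and 0.21 and -0.42 after centring. Their median was 0.11, beside 0.12 for all loci. In PLM against JA 0 of 43 were called or passed an adjusted p of 0.05 from limma, while 3 of 43 had an unadjusted p under 0.05, against 11.8% of all loci, and the median was -0.14 beside -0.10. Dtx4, a Deltex ubiquitin ligase, had a log2 fold change of -0.61, Pofut1, which puts the fucose on Notch, -0.42, and the target Heyl -0.51 (adjusted p = 0.342, 0.353 and 0.368, limma), and -0.49, -0.29 and -0.39 after centring. Ncstn, Aph1a and Hes6 followed with -0.22, -0.24 and -0.15 (adjusted p = 0.461, 0.469 and 0.507, limma), and -0.09, -0.12 and -0.02 after centring.

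In PLM against SNI 0 of 43 were called, 9 were lower and 0 higher at an adjusted p under 0.05, beside 13.6% of loci that were lower and 13.9% in either direction. On median-centred values 0 of 43 passed from limma, where 0.814% of loci did (0.685% lower), and 7 of 43 had an unadjusted p under 0.05, against 16.9% of all loci. The target Heyl, another repressor of the Hey type, was lower in PLM. Its SNI samples were at 12.37, 11.93 and 11.23 TPM and its PLM samples at 7.30, 6.71 and 7.11 TPM, and its log2 fold change was -0.68 (standard error 0.07) at an adjusted p of 0.00786 from limma, and -0.43 after centring (adjusted p = 0.0749, limma). JA lay at 12.47, 11.40 and 8.01 TPM, above every PLM sample. Pofut1 had -0.41 (adjusted p = 0.0309, limma), and -0.16 after centring (adjusted p = 0.302, limma). Of the ubiquitin and endocytosis genes 5 of 11 passed, Dtx4, Dtx1, Fbxw7, Numbl and Mib2, with log2 fold changes between -0.64 and -0.28, and between -0.39 and -0.03 after centring, where 0 of 11 passed. Rbpj, the DNA-binding partner of the Notch intracellular part, had -0.23 (adjusted p = 0.146, limma) and 0.02 after centring. None of the 5 tested ligands passed, among them Dner, whose mean was 63.5 ± 5.99 TPM in SNI against 55.1 ± 3.72 TPM in PLM (SD, n = 3), at -0.20 (adjusted p = 0.155, limma) and 0.05 after centring. The median over the 43 genes was -0.24 beside -0.21 for all loci, and 0.01 beside 0.04 after centring.

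**Figure D5:**
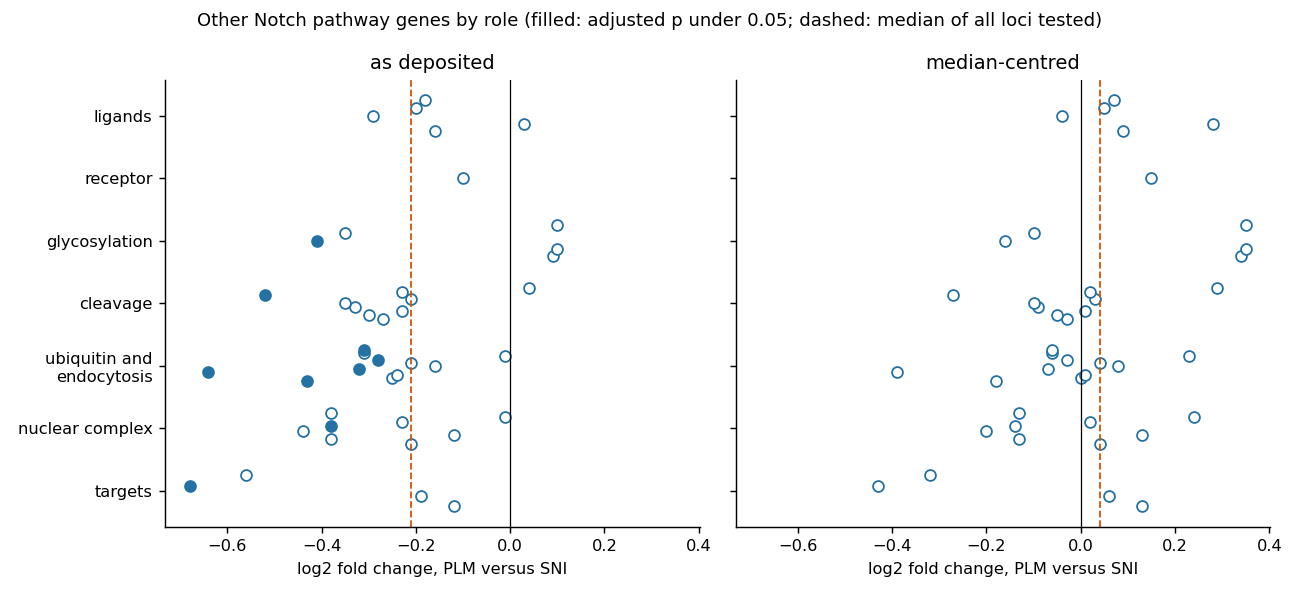
Log2 fold changes in PLM versus SNI of the 43 other pathway genes tested, by role, as deposited and median-centred; filled points passed an adjusted p of 0.05 from limma and dashed lines are the medians of all loci tested. As deposited 9 points are filled, and after centring 0.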

How the data were processed

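The authors removed adaptors and low-quality reads, mapped reads with HISAT2 and computed expression with StringTie, according to the methods of the study. The submitters' processing notes name fastp 0.19.5 and the build GRCh38.p13, a human build, while the identifiers are those of rat genes. The rat build is not given in the sources used here. The deposited table holds 1 TPM value per locus and sample, and no counts.

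Each comparison used limma 3.58.1 in R 4.3.3, with a variance trend, on log2(TPM + 1). Loci whose mean in the 6 samples compared was 1 TPM or more were tested, and p-values were adjusted over all loci tested (Benjamini-Hochberg). Fold changes on this scale understate the change of low genes. For median-centred values the median of each sample over the loci tested was subtracted. The fitting was run on simulated data with independent noise for each gene and sample. The simulation held no shift shared by the genes of a sample, so it says nothing about such shifts here. The members and gene lists were chosen with earlier results of these data known, and the motifs, Fringe shares and promoters after the values had been seen. Named were all members, of the pathway list the 6 smallest p-values in each comparison or all past an adjusted p of 0.05 (some of these are not reported here), Gfap, Aqp4, Slc1a3 and the 5 genes nearest to Lfng. Rfng, Dner, Rbpj, the genes of cord level and cord neurons, and the genes under 1 TPM were named after their values were seen. LOC, RGD and clone names did not count as symbols in the search for the genes nearest to Lfng. The alternatives tried were centring, rescaling without mitochondrial genes, quantile normalization, a pseudocount of 0.1, other filters, 1 fit of all 9 samples together, a replicate block, leaving out each sample, and the median of the astrocyte list.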

Additional observations from a re-analysis of the deposited data

How the results depend on the processing

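Of the members, 0 passed an adjusted p of 0.05 from limma in SNI against JA or PLM against JA under any alternative run, with adjusted p-values from 0.236 to 0.999 and from 0.0628 to 0.992. The sign of members near 0 in SNI against JA turned with the scaling. On median-centred and quantile-normalized values the log2 fold changes were alike at -0.02 for Notch1, -0.04 for Notch2, -0.10 for Notch3 and -0.07 for Hey1, and without the mitochondrial genes -0.06 for Notch3 and -0.03 for Hey1. With a sample left out, Notch1 ranged from -0.10 to 0.28, Notch3 from -0.18 to 0.23, Hey1 from -0.11 to 0.17 and Hey2 from -0.09 to 0.31. In PLM against JA, Notch1 ranged from -0.35 to 0.02 and Jag1 from -0.24 to 0.02. Without JA replicate 3, Lfng was called in PLM against JA, so members called ranged from 0 to 1 and loci called from 121 to 228, the last against 144 with all samples.

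The log2 fold change of Lfng in PLM against SNI was -1.18 with centring or quantile normalization, -1.31 without the mitochondrial genes, -1.51 with a pseudocount of 0.1, and -1.48 to -1.38 with a sample left out. Its difference relative to the astrocyte list moved to 0.08 in PLM against SNI and to 0.05 in SNI against JA with the median of the list. Requiring 1 TPM in every sample, which leaves fewer loci, gave 40 called loci in SNI against JA in place of 107 and 71 in PLM against JA. Centring gave 166 in PLM against SNI in place of 255. Taking an adjusted p under 0.05 alone, the loci passing in SNI against JA, PLM against JA and PLM against SNI were 0, 3 and 2148, and in PLM against SNI 9 pathway genes passed. There 3 members were past that value too, which is no test, since they were chosen with this contrast known. The cause of these moves was not tested beyond what each alternative changes.

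The replicate numbers did not pair the samples, since correlations of same-numbered deviations were between -0.05 and 0.13. With the replicate number as a block, 111, 172 and 283 loci were called in the 3 comparisons, and the members called were still 0, 0 and 1. TPM keeps no depth, so counting error could not be weighed.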
